A study of Mus musculus with 20 samples.

Results

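Intermediate filament genes were followed across the neural and vascular cells of the Nestin-EGFP+ sort of the mouse dentate gyrus. The 8 genes were taken by symbol, namely Nes, Vim, Gfap, Des, Synm, Nefl, Nefm and Ina, and all 8 of 8 were found among the 27998 genes of the single-cell RNA-seq (scRNA-seq) tables and among the genes of the bulk RNA-seq. The study compared neural stem cells (NSCs) of the dentate gyrus, the part of the hippocampus that makes new neurons after birth, between postnatal day 5 (P5), 12 weeks (12w) and 24 weeks (24w) of age. Mice carried an EGFP transgene under regulatory sequence of the Nestin gene on a C57BL/6 background, and viable EGFP+ cells of the dissected and papain-treated dentate gyrus were sorted at each age for 10x Genomics scRNA-seq and single-cell ATAC-seq (scATAC-seq). There was 1 library per age and assay, and how many mice gave each library, and of which sex, was not given in the sources used here. The gate thus rests on activity of the regulatory sequence of 1 of the 8 genes, and cells below the gate were not collected at any age. A separate bulk RNA-seq experiment used NSCs in culture, which the methods derive from the cortex of embryonic day 11 mice and carry for many passages while the labels name hippocampus as their tissue. These cells received a lentiviral short hairpin RNA against Setd8, which encodes the histone H4 lysine 20 monomethyltransferase, or a control lentivirus, and were selected with puromycin and collected 3 days after infection by the methods, whereas the study's expression table says 2 days.

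Intermediate filaments are rope-like polymers of the cytoskeleton that give a cell tensile strength, and each cell type builds them from its own set of proteins. In the brain, nestin and vimentin mark radial glia and progenitors, glial fibrillary acidic protein (GFAP) marks astrocytes and the radial stem cells of the dentate gyrus, the neurofilament proteins and alpha-internexin fill axons, and desmin belongs to muscle and to the mural cells of vessels. Nestin and synemin do not polymerise well alone and join filaments of vimentin, desmin or GFAP.

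The sequences just before the start sites are shown because the 5 genes described most fully differ in which cells held their RNA and in how open their start sites were. RefSeq promoter sequences on GRCm38.p6 matched 6 of the 8 genes, and Nefl and Nefm are named only. Each sequence is the 250 bases before the start, 5′ to 3′ on the strand of the gene, in lower case with matches to 6 short motifs in capitals. The motifs, searched on both strands, were TATAAA (the TATA box), CCAAT (a box bound by NF-Y), GGGCGG (a Sp1 and Klf factor box), CAGCTG (an E box, which reads the same on both strands), TTAAAA (a stretch rich in A and T) and the CArG box of serum response factor. These windows lie at chr3:87970843-87971092 on the plus strand for Nes, chr2:13574061-13574310 on the plus strand for Vim, chr11:102897201-102897450 on the minus strand for Gfap, chr1:75360042-75360291 on the plus strand for Des and chr19:47014431-47014680 on the plus strand for Ina.
Nes: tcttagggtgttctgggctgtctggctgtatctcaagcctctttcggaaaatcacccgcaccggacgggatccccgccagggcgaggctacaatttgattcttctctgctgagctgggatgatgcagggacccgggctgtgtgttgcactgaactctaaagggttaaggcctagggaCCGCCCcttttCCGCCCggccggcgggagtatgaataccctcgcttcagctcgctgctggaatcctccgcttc
Vim: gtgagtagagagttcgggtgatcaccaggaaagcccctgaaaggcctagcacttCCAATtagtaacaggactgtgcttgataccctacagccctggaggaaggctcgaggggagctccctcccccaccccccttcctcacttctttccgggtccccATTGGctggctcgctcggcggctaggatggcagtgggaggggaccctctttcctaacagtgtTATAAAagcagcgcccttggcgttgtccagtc
Gfap: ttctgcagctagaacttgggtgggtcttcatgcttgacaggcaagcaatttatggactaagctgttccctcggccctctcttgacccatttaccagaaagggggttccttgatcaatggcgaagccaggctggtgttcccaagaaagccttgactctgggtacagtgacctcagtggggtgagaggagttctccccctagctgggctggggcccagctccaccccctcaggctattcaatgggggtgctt
Des: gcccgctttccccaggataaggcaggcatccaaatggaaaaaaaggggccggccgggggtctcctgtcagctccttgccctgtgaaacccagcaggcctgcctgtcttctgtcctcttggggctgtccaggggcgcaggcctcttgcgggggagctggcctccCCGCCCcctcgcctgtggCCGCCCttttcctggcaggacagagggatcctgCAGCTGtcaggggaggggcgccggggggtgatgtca
Ina: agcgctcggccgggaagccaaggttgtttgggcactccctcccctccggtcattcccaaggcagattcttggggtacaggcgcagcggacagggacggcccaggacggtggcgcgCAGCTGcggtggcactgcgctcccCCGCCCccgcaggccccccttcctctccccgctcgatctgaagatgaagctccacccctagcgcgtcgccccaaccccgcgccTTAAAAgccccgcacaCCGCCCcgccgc

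Among the 32851 promoter windows of the same length, TATAAA was found in 12.4%, CCAAT in 33.8%, GGGCGG in 32.7%, CAGCTG in 13.0%, TTAAAA in 17.7% and a CArG box in 1.47%. The Vim window held TATAAA at 32 to 27 bases before the start and CCAAT at 196 to 192 on the strand of the gene and at 94 to 90 on the opposite strand. The Nes window held GGGCGG on the opposite strand at 73 to 68 and at 62 to 57. In the Des window GGGCGG lay on the opposite strand at 87 to 82 and at 69 to 64, and CAGCTG at 36 to 31. For Ina, GGGCGG lay on the opposite strand at 111 to 106 and at 12 to 7, CAGCTG at 135 to 130 and TTAAAA at 28 to 23. Synm, at chr7:67759743-67759992 on the minus strand and not printed, held CCAAT on the opposite strand at 78 to 74. The Gfap window held none of these letters. It was also the poorest in CpG, with 2 CpG and a GC content of 55.6%, against 15 and 58.8% for Nes, 8 and 58.4% for Vim, 10 and 67.2% for Des, 23 and 70.0% for Synm and 25 and 70.8% for Ina, while the median GC content over all windows was 52.4%. These matches describe the letters only.

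At P5, 12w and 24w, 12752, 5271 and 2794 cells were kept, and their median count of unique molecular identifiers (UMIs, each standing for 1 captured RNA molecule) was 4261, 2271 and 2178. Barcodes called as cells and shared between libraries numbered 86, 57 and 26 for the 3 pairs of ages. Xist, the RNA of the inactive X chromosome of females, was found in 25.9%, 92.4% and 0.0716% of cells, so age and the sex of the mice cannot be told apart. Cells were clustered without the 8 genes and named from markers as NSC-like, AS-like (astrocytes), NPC-like (neural progenitors), IMN1-like and IMN2-like (immature neurons), IN-like (interneurons), OPC-like and OL-like (oligodendrocyte precursors and oligodendrocytes), EDC-like (ependymal cells), PC-like (pericytes), VSMC-like (vascular smooth muscle cells) and EC-like (endothelial cells). Levels are UMIs pooled over a class and age as CPM, counts scaled to a common total, with exact 95% Poisson intervals, and ratios between ages have exact 95% conditional binomial intervals. All of these cover counting error only and not differences between mice, and no test between ages was possible with 1 library per age, while classes were compared by these intervals alone. NSC-like cells numbered 1320, 337 and 87 at the 3 ages, AS-like cells 4509, 449 and 145, PC-like cells 371, 2427 and 1732, and VSMC-like cells 75, 471 and 275. Cluster 2-3, with 228 of the 337 NSC-like cells at 12w and 64 of the 87 at 24w, lay close to astrocytes, with a mean log2 rise of 0.994 for the NSC markers and of 0.783 for the astrocyte markers. Values given in a row of 3 are in the order P5, 12w and 24w, and groups under 20 cells are not given. NPC-like cells numbered 636, 80 and 18. Cluster 2-5, with 645, 161 and 26 cells, scored highest for the NPC markers, of which 8 were raised. It stayed unnamed because a marker of another class, and none of the NPC markers, was among its 10 leading genes. Values of NPC-like cells thus leave these cells out. PC-like cells were mostly of cluster 1-5 at P5 and of clusters 1-1 and 1-5 at 12w and 24w. Free RNA, estimated at 12w and 24w from barcodes of 10 to 100 UMIs, is given beside the main levels that it could supply in large part, and the P5 library lists no such barcodes. The 9 pericyte markers summed to 15869.9 and 23551 CPM in the free RNA at 12w and 24w, and to 315, 1323 and 2475 CPM in NSC-like cells of the 3 libraries.

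Nes, which encodes nestin, was found in both neural and vascular cells of the sort, and its level was higher at 12w and 24w than at P5 in NSC-like and AS-like cells and near its P5 level in PC-like cells. In NSC-like cells the level was 59.5, 116 and 173 CPM (332, 143 and 55 UMIs). The interval at P5, 53.2 to 66.2 CPM, lay below those at 12w, 97.6 to 136 CPM, and at 24w, 130.0 to 225 CPM, which overlapped each other. The ratio over P5 came to 1.95 (1.59 to 2.38) at 12w and 2.9 (2.14 to 3.87) at 24w, which at 12w was just short of a 2-fold difference. The 2 clusters of NSC-like cells that held at least 20 cells at each age had this order: cluster 2-3 went through 55.4, 105 and 149.7 CPM and cluster 2-8 through 69.8, 141 and 249 CPM. Astrocytes keep little nestin in the adult brain and raise it on injury. AS-like cells held less Nes than NSC-like cells, with 27.5, 72.0 and 58.3 CPM (537, 93 and 22 UMIs). Their ratio over P5 came to 2.62 (2.08 to 3.27) and 2.12 (1.32 to 3.24), and NSC-like cells were above AS-like cells at every age, by 2.16 (1.88 to 2.48), 1.61 (1.23 to 2.11) and 2.96 (1.77 to 5.09) times. In AS-like cells the difference at 24w was near 2-fold and fell under it with the median of all genes set to 0 (1.91), in cells of at least 2000 UMIs (1.72) and after subtracting free RNA (1.85). The 8 NSC markers used for naming were also higher at the later ages in AS-like cells, with a sum of 148, 454 and 541 CPM. In NSC-like cells they summed to 733, 1038 and 1082 CPM. Whether stem-like cells within the AS-like class account for its Nes levels was not tested. Free RNA was predicted to supply 3.02% and 3.96% of the level in NSC-like cells and 4.95% and 12.6% of that in AS-like cells at 12w and 24w. Newborn neurons shut nestin off as they leave the progenitor state, and here these classes were low. Their levels were 8.37, 14.7 and 27.7 CPM in IMN1-like cells (19, 17 and 5 UMIs). IMN2-like cells held 6.4, 7.95 and 15.6 CPM (28, 15 and 5 UMIs), of which free RNA was predicted to supply 37.6% and 42.9% at 12w and 24w. The ratios over P5 were 1.75 (0.855 to 3.56) and 3.31 (0.967 to 9.18) in IMN1-like cells. In IMN2-like cells they were 1.24 (0.616 to 2.4) and 2.44 (0.735 to 6.4), and each of these intervals includes 1. NPC-like cells held 40.8 CPM at P5 from 204 UMIs and 28.6 CPM at 12w from 17 UMIs, and OPC-like cells at P5 24.1 CPM.

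Among vascular cells, PC-like cells held 99.6, 87.6 and 117 CPM (180, 407 and 423 UMIs). VSMC-like cells held 81.5, 90.3 and 124 CPM (43, 135 and 102 UMIs), and EC-like cells 129 CPM at 12w from 34 UMIs and 133 CPM at 24w from 47 UMIs. Pericytes and smooth muscle cells, the mural cells of vessels, are known to hold nestin, and here the ratio over P5 was near 1 in PC-like cells, at 0.88 (0.737 to 1.05) and 1.18 (0.985 to 1.41), and in VSMC-like cells at 12w, at 1.11 (0.781 to 1.6), whereas the interval in VSMC-like cells at 24w lay above 1, at 1.52 (1.05 to 2.22). PC-like cells led at P5 while NSC-like cells were higher at 24w, and NSC-like over PC-like cells gave 0.597 (0.497 to 0.72), 1.32 (1.09 to 1.6) and 1.47 (1.09 to 1.96). Neighbouring classes in the order of levels could often not be separated. EDC-like cells held 76.3, 114 and 154 CPM (105, 13 and 41 UMIs). At P5 the order PC, VSMC, EDC and NSC had overlapping intervals between neighbours, and the first step without overlap was from NSC-like to NPC-like cells. At 12w the 6 classes from EC-like down to AS-like cells overlapped each with the next. With each cell thinned to 1000 UMIs, the share of NSC-like cells with a Nes UMI was 6.59%, 10.7% and 13.8% and of PC-like cells 9.7%, 8.98% and 10.7%, against 0.676%, 1.36% and 1.28% of IMN2-like cells. Unthinned, the shares in NSC-like cells were 21.3%, 30.0% and 37.9%.

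**Figure D1:**
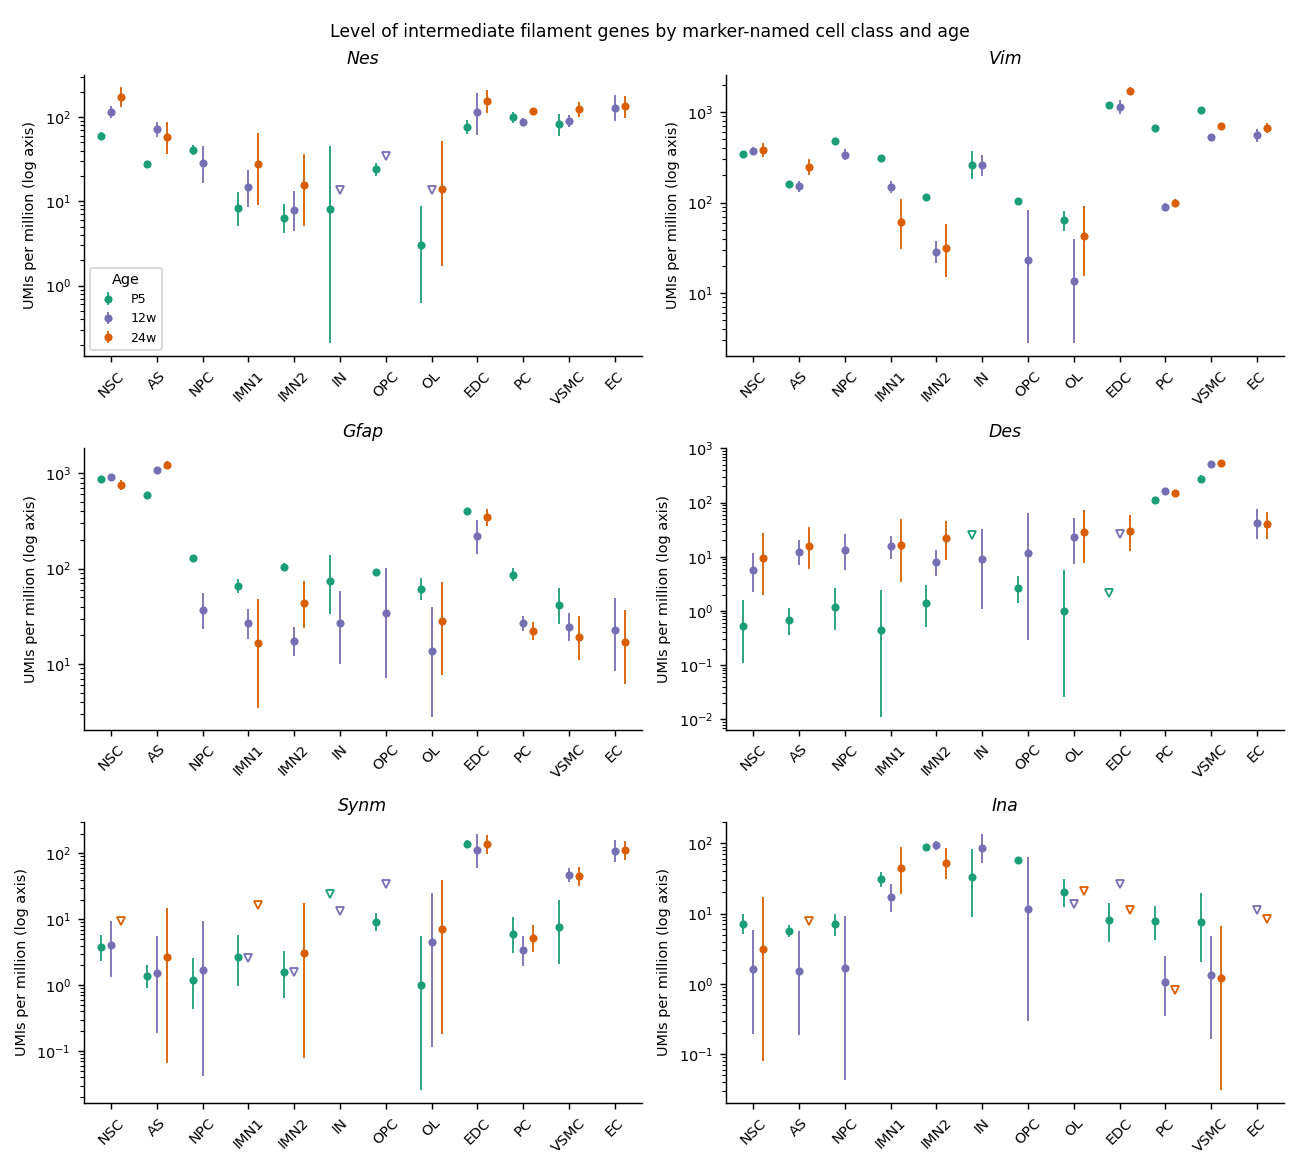
Levels in CPM (log axis) of 6 intermediate filament genes by cell class and age, in groups of at least 20 cells. Points are pooled UMIs with exact 95% Poisson intervals for counting error, and open triangles mark groups with 0 UMIs at the limit that 3 counts allow. Vim in PC-like cells went from 669 CPM at P5 to 89.3 and 98.8 CPM, while Des was highest in VSMC-like and then in PC-like cells.

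Vim, which encodes vimentin, the main filament protein of mesenchymal cells and of radial glia, was far lower in PC-like cells at 12w and 24w than at P5 and differed little between ages in NSC-like cells. PC-like cells held 669, 89.3 and 98.8 CPM (1210, 415 and 357 UMIs). The ratio over P5 came to 0.133 (0.119 to 0.149) at 12w and 0.148 (0.131 to 0.166) at 24w. Each of the 3 clusters of PC-like cells that held at least 20 cells at each age showed it, with 681, 75.2 and 87.0 CPM in cluster 1-1, 729, 94.6 and 102 CPM in cluster 1-5 and 444, 103 and 114 CPM in cluster 1-7. Thinned to 1000 UMIs per cell, 46.6% of PC-like cells had a Vim UMI at P5 and 7.54% and 9.06% at 12w and 24w, and unthinned the shares were 79.8%, 15.1% and 18.2%. At a fixed depth this share follows the level, so it cannot tell fewer PC-like cells with Vim from less Vim per cell. Free RNA was predicted to supply 21.0% and 25.0% of the remaining level. VSMC-like cells, the other mural class, held 1049.9, 536 and 693 CPM (554, 802 and 571 UMIs), a ratio over P5 of 0.511 (0.458 to 0.57) and 0.66 (0.586 to 0.743). VSMC-like over PC-like cells gave 1.57 (1.42 to 1.74), 6.0 (5.33 to 6.78) and 7.01 (6.13 to 8.03). EC-like cells held 550.3 CPM at 12w from 145 UMIs and 665 CPM at 24w from 235 UMIs.

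Among neural cells Vim was highest in EDC-like cells, the ciliated lining of the ventricles. These held 1188, 1129 and 1708 CPM (1636, 129 and 455 UMIs), with ratios over P5 of 0.95 (0.788 to 1.14) and 1.44 (1.29 to 1.6). NSC-like cells held 345, 373 and 383 CPM (1928, 461 and 122 UMIs), and the ratios of 1.08 (0.975 to 1.2) and 1.11 (0.915 to 1.33) have intervals that include 1. Within them cluster 2-8 was above cluster 2-3 at each age, at 481, 525 and 783 CPM against 228, 288 and 239.5 CPM. The level followed the cluster more than the age in these cells. AS-like cells held 159.9, 152 and 247 CPM (3121, 196 and 93 UMIs), a ratio over P5 of 0.949 (0.817 to 1.1) and 1.54 (1.24 to 1.9). The cycling NPC-like cells held 479 CPM at P5 from 2393 UMIs and 338 CPM at 12w from 201 UMIs. Neurons replace vimentin with their own filaments as they mature. Vim was lower at the later ages in both neuronal classes. Whether the maturity of these cells differed between the ages, and what part of the P5 level came from other cells, was not tested. IMN1-like cells held 309, 147 and 61.0 CPM (701, 171 and 11 UMIs). IMN2-like cells held 115, 28.6 and 31.2 CPM (503, 54 and 10 UMIs). Their cluster 2-2, with 600 of 1184, 433 of 514 and 54 of 78 cells, held 107, 27.9 and 26.0 CPM. The lower level at 12w and 24w than at P5 was thus also present within 1 cluster. In IMN2-like cells free RNA was predicted to supply 54.5% and 91.5% of the level at 12w and 24w, and the ratios over P5 came to 0.249 (0.184 to 0.33) and 0.271 (0.129 to 0.503). In IMN1-like cells they were 0.478 (0.402 to 0.565) and 0.198 (0.0982 to 0.356), and with other clustering resolutions the value at 12w was 0.503 and 0.558, which is no longer past 2-fold; free RNA was predicted to supply 9.54% and 59.2% of the level. OPC-like cells at P5 held 103 CPM, and IN-like cells 263 CPM at P5 from 32 UMIs and 262 CPM at 12w from 58 UMIs.

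Gfap was highest in NSC-like and AS-like cells at every age, and the order of these classes changed between P5 and the later ages. NSC-like cells held 874, 905 and 753 CPM (4877, 1117 and 240 UMIs). Their ratios over P5 came to 1.04 (0.97 to 1.11) and 0.862 (0.754 to 0.981), small beside the 2-fold used as the rule of size. AS-like cells held 594, 1088 and 1233 CPM (11585, 1405 and 465 UMIs). Here the ratios were 1.83 (1.73 to 1.94) at 12w and 2.08 (1.89 to 2.28) at 24w. NSC-like over AS-like cells gave 1.47 (1.42 to 1.52), 0.832 (0.768 to 0.901) and 0.61 (0.52 to 0.715), none of whose intervals includes 1. The clusters within each class had different levels and different ratios between ages. AS-like clusters 2-0 and 2-1 went from 329.6 and 302 CPM at P5 to 954 and 779 CPM at 12w, whereas AS-like cluster 2-4, with 891 cells at P5 and 24 at 12w, was already at 1179.7 CPM at P5 and reached 4252 CPM at 12w. NSC-like cluster 2-3 held 1084, 816 and 834 CPM and cluster 2-8 533, 1088 and 547 CPM. Between these NSC-like clusters, 2-8 was the one of lower Gfap at P5 and 24w and of higher Gfap at 12w. At P5 cluster 2-3 lay above the 594 CPM of AS-like cells and cluster 2-8 below it. The order of the classes at P5 was thus not shared by both clusters. The 10 astrocyte markers used for naming summed to 1559, 3357 and 3829.7 CPM in NSC-like cells and to 3510.0, 7757 and 7589 CPM in AS-like cells at P5, 12w and 24w. Thinned to 1000 UMIs, 43.6%, 54.9% and 42.5% of NSC-like cells and 32.4%, 52.3% and 48.3% of AS-like cells had a Gfap UMI, against 5.93%, 2.27% and 2.48% of PC-like cells, which should lack it. The median depths of these classes at the 3 ages were 4068, 3451 and 3499 UMIs for NSC-like, 4135, 2602 and 2359 for AS-like and 4611, 1842 and 2025 for PC-like cells. Ependymal cells are related to astrocytes and keep some GFAP. EDC-like cells held 401, 219 and 345 CPM (552, 25 and 92 UMIs).

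Gfap was also counted in immature neurons and pericytes at P5, and those levels were lower at 12w and 24w. IMN2-like cells held 104, 17.5 and 43.7 CPM (453, 33 and 14 UMIs). Within their cluster 2-2 the level was 63.9 CPM at P5 and 15.7 CPM at 12w with 0 UMIs at 24w, and the 14 UMIs at 24w all came from the 17 cells of cluster 2-9, which held 500 of the 1184 cells at P5. IMN1-like cells held 66.1, 26.7 and 16.6 CPM (150, 31 and 3 UMIs). PC-like cells held 86.8, 26.7 and 22.4 CPM (157, 124 and 81 UMIs). The same cells held other astrocyte RNAs at P5. In IMN2-like cells Gfap stood at 17.5% of its level in AS-like cells, and the 10 astrocyte markers at 9.88% to 23.3% of theirs, with a median of 15.6%. In PC-like cells Gfap stood at 14.6% and the markers at 6.0% to 16.1%, and in IMN1-like cells at 11.1% and 3.1% to 12.8%. Gfap was within the range of the markers in all 3 classes. None of the 10 markers was at 0 in these classes at P5, and their sum went through 506, 117 and 203 CPM in IMN2-like, 243, 101 and 27.7 CPM in IMN1-like and 339.6, 182 and 154 CPM in PC-like cells at P5, 12w and 24w. At 12w and 24w free RNA was predicted to supply 105% and 97.7% of the Gfap level in PC-like cells and 133% and 58.0% of that in IMN2-like cells, and 78.3% and 193% of that in IMN1-like cells. The share of the Gfap counts at P5 that came from other cells was not tested, since the P5 library lists no barcodes of low depth.

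**Figure D2:**
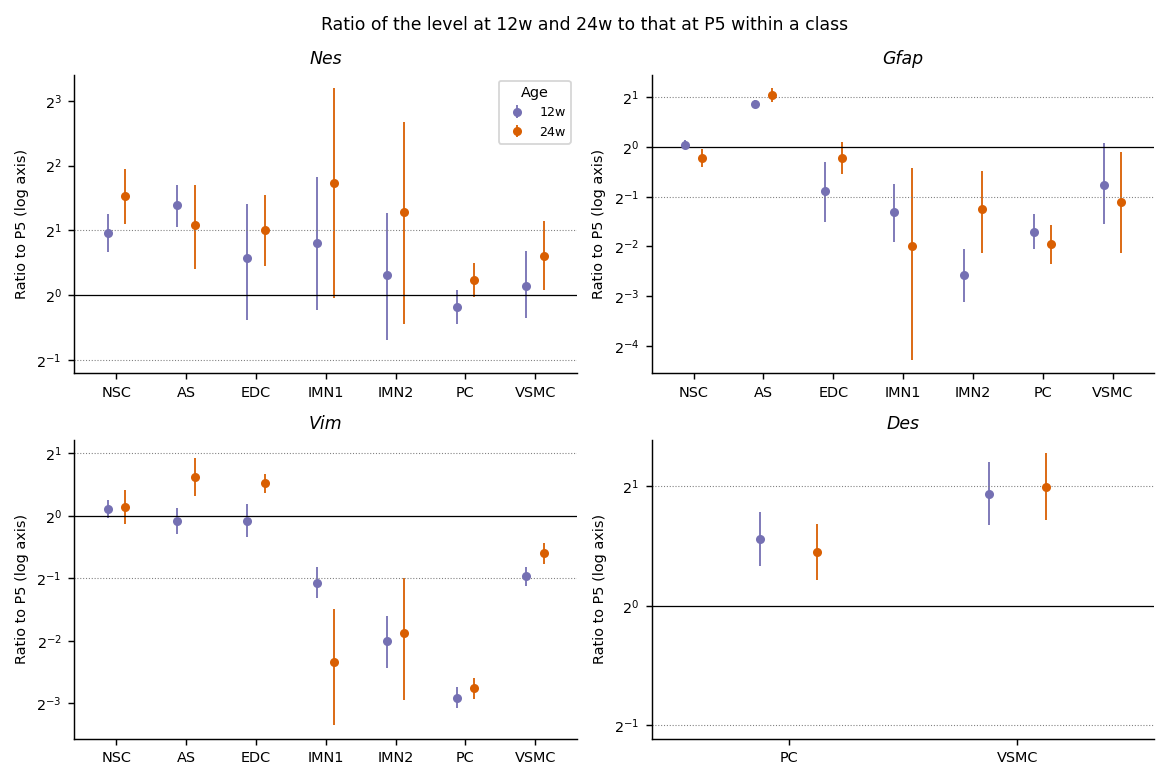
Ratio of the level at 12w and 24w to that at P5 (log axis) for Nes, Gfap, Vim and Des within classes, with exact 95% intervals for counting error; dotted lines mark 2-fold. Nes lies above 1 in NSC-like and AS-like cells, with 2.9 and 2.12 at 24w, and Vim lies lowest in PC-like cells at 12w, at 0.133.

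Des, the desmin gene of muscle filaments, was highest in the mural cells of vessels. VSMC-like cells held 269, 516 and 535 CPM (142, 771 and 441 UMIs) and PC-like cells 112, 165 and 153 CPM (203, 768 and 553 UMIs). The ratio over P5 came to 1.92 (1.6 to 2.31) and 1.99 (1.64 to 2.42) in VSMC-like cells, just short of 2-fold, and 1.47 (1.26 to 1.73) and 1.36 (1.16 to 1.61) in PC-like cells. VSMC-like cells were above PC-like cells by 2.4 (1.92 to 2.98), 3.12 (2.82 to 3.45) and 3.5 (3.08 to 3.97) times at P5, 12w and 24w. Smooth muscle is richer in desmin than the thin pericyte, and the classes had this order at each age. The share of VSMC-like cells with a Des UMI after thinning was 15 of 75 at P5, 38.6% at 12w and 38.5% at 24w, against 0.0758%, 0.89% and 0% of NSC-like cells. In NSC-like cells Des was low, at 0.537, 5.67 and 9.41 CPM (3, 7 and 3 UMIs), and free RNA was predicted to supply 177% and 188% of it at 12w and 24w. In IMN1-like cells at 12w, with 15.5 CPM on 18 UMIs, the predicted part was 49.9%. Cluster 1-15, which stayed unnamed because markers of both mural classes were high, held 560.4 and 494 CPM at 12w and 24w.

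Synm encodes synemin, a large partner of desmin and vimentin filaments, and was found in ependymal, endothelial and smooth muscle cells. EDC-like cells held 139, 114 and 139 CPM (191, 13 and 37 UMIs), and EC-like cells 110.1 CPM at 12w from 29 UMIs and 113 CPM at 24w from 40 UMIs. VSMC-like cells went from 7.58 CPM on 4 UMIs at P5, with an interval of 2.07 to 19.4, to 46.8 CPM (70 UMIs) and 44.9 CPM (37 UMIs). Their ratio over P5 came to 6.18 (2.31 to 23.3) and 5.92 (2.13 to 22.9), wide intervals that follow from the 4 UMIs at P5. The mural classes differed in Synm at the later ages, when it was far lower in pericytes, while at P5 both were low and VSMC-like over PC-like cells gave 1.25 (0.289 to 4.2). PC-like cells were low in Synm at all ages, with 6.08, 3.44 and 5.26 CPM (11, 16 and 19 UMIs). EC-like cells stood above VSMC-like cells by 2.35 (1.47 to 3.67) times at 12w and 2.52 (1.57 to 4.06) times at 24w, and OPC-like cells at P5 held 9.23 CPM.

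The neuronal members were unequal in counts. Ina, for alpha-internexin, a filament protein that appears early in a maturing neuron, reached 89.4, 93.8 and 53.1 CPM (391, 177 and 17 UMIs) in IMN2-like cells. IMN1-like cells, the earlier class, held 30.8, 17.2 and 44.4 CPM (70, 20 and 8 UMIs), and IN-like cells 32.9 CPM at P5 from 4 UMIs and 85.7 CPM at 12w from 19 UMIs. OPC-like cells at P5 held 57.2 CPM (285 UMIs) and OL-like cells at P5 20.1 CPM (20 UMIs). Beside neurons, precursors of oligodendrocytes thus held Ina at P5. In NSC-like cells Ina was low, with 7.16, 1.62 and 3.14 CPM (40, 2 and 1 UMIs), and in AS-like cells it went through 5.64, 1.55 and 0 CPM (110, 2 and 0 UMIs). The 8 IMN2 markers used for naming summed to 271, 169 and 129 CPM in NSC-like cells. In AS-like cells they summed to 256, 167 and 143 CPM, and in IMN2-like cells to 5006, 5633 and 6385 CPM. What part of the Ina counts in NSC-like and AS-like cells came from other cells was not tested. The ratios over P5 in NSC-like cells were 0.226 (0.0265 to 0.872) and 0.438 (0.0108 to 2.58) and rest on 2 and 1 UMIs, the interval at 24w includes 1, and with at most 5% mitochondrial UMIs allowed the value at 24w was 0.708. The 0 UMIs in AS-like cells at 24w allow a level of up to 7.96 CPM, above that at P5, so a lower level at 24w was not detectable at this depth. Nefl and Nefm, for the light and medium neurofilament proteins of mature axons, stayed at or under 6.27 CPM in every class. The most counts were in OPC-like cells at P5, with 26 UMIs for Nefl (5.22 CPM) and 30 for Nefm (6.02 CPM), and Nefm in IMN2-like cells held 3.2 and 3.18 CPM at P5 and 12w. Both had 0 UMIs in PC-like, VSMC-like, EC-like and EDC-like cells.

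Within a class, cells with a Gfap UMI were compared with cells without one for the presence of Vim at 1000 UMIs per cell. Vim was found in 24.8% against 23.3% of NSC-like cells at P5, and in 27.6% against 22.4% at 12w. At 24w the order was the reverse, with 13.5% against 34.0% on 5 and 17 NSC-like cells with Vim. In AS-like cells at P5 the shares were 15.1% against 12.1%, in EDC-like cells 78.6% against 62.2%, and in PC-like cells 45.5% against 46.7%. AS-like and EDC-like cells kept this direction at 12w and 24w, on few cells. EDC-like cells with a Gfap UMI were 6 with and 1 without Vim at 12w, and 14 and 1 at 24w. AS-like cells with a Gfap UMI were 33 with and 202 without Vim at 12w, and 12 and 58 at 24w. No interval was set on these shares, so the direction is a description only. PC-like cells gave 0% against 7.72% at 12w and 4.65% against 9.18% at 24w. At this depth a missing UMI does not show a missing RNA. The pattern of each gene over 26 groups of class and age was set beside the 10096 other genes with enough UMIs, as Pearson correlations of log2(CPM + 10), in which groups of 1 age share a library and its depth. The 3 most similar genes were Plin3 (r = 0.938), Yap1 (r = 0.926), Cyba (r = 0.925) for Nes, Plec (r = 0.761), Etfa (r = 0.756), B4galt1 (r = 0.748) for Vim, Slc25a18 (r = 0.982), Mlc1 (r = 0.978), Prdx6 (r = 0.974) for Gfap, Mylk (r = 0.988), Filip1l (r = 0.983), Hspb2 (r = 0.981) for Des and Shank1 (r = 0.959), March1 (r = 0.958), Jph3 (r = 0.95) for Ina. Mylk encodes the myosin light chain kinase of smooth muscle, Slc25a18 a mitochondrial glutamate carrier, Shank1 a postsynaptic scaffold, Yap1 a coactivator of the Hippo pathway and Plec the filament linker plectin. Mlc1 is 1 of the astrocyte markers used for naming. No other member was among these genes, and Vim had the lowest first correlation of the 5.

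Counted over genes, ratios past 2-fold at both later ages were counted for 12 pairs of a member and a class, of which 2 were upward, and in 8 of the 12 the intervals at both ages lay clear of 1. The count takes genes with at least 20 UMIs where they were higher and a ratio past 2-fold the same way at 12w and at 24w. A gene thus entered through the age at which it was higher, which favours a difference in genes of few counts, among the members as among all genes, and these counts are a description only. The 4 pairs with an interval that includes 1 were Ina in NSC-like, AS-like and OL-like cells and Gfap in OL-like cells. In NSC-like cells 5 members could be compared and 1, Ina, was counted as lower, where 6.44% of all genes compared were lower and 2.78% higher. In AS-like cells Nes was counted as higher and Ina as lower among 5 members, against 3.49% and 9.33% of all genes. Vim and Gfap were lower in IMN1-like cells (2 of 3 members, where 2.69% of all genes were lower and 1.31% higher), in IMN2-like cells (2 of 4, 4.95% and 1.72%) and in PC-like cells (2 of 4, 8.09% and 15.0%). In OL-like cells Gfap and Ina were counted as lower (2 of 3, where 8.20% of all genes were lower and 2.44% higher), of which Gfap, with 61.4, 13.6 and 28.4 CPM (61, 3 and 4 UMIs) and a ratio of 0.221 (0.0444 to 0.678) and 0.462 (0.122 to 1.24), was under 2-fold with at most 5% mitochondrial UMIs (0.526 at 24w) and as a mean over cells (0.577). At P5 Gfap in OL-like cells stood at 10.3% of its level in AS-like cells. The 10 astrocyte markers stood at 3.93% to 465% of theirs, with a median of 9.18%. Free RNA was estimated at 8.78% and 12.3% of the UMIs of OL-like cells at 12w and 24w, and itself held 291 and 240 CPM of Gfap. Synm was higher in VSMC-like cells (1 of 5, where 17.5% of all genes were higher and 6.91% lower), and 0 of 4 members passed in EDC-like cells, where 0.919% of genes were higher and 7.29% lower. The median log2 ratio of the members at 12w and 24w was -1.06 and -1.77 in IMN1-like, -0.96 and -0.95 in IMN2-like and -0.94 and -0.86 in PC-like cells, against 0.15 and 0.18, 0.11 and 0.14, and 0.20 and 0.24 over all genes compared. In AS-like cells it was 0.46 and 1.06 against 0.08 and 0.17. It was 0.11 and -0.21 in NSC-like cells, against 0.04 and 0.11, and -0.15 and 0.27 in EDC-like cells, against 0.003 and -0.073. VSMC-like cells gave 0.14 and 0.59 against 0.23 and 0.31, and OL-like cells -2.01 and -0.96 against -0.003 and -0.020. In IMN1-like, IMN2-like and OL-like cells every member compared entered through its UMIs at P5, which favours a lower median. In NSC-like and AS-like cells Synm and Ina entered in this way too, as did Nes and Synm in EDC-like and Gfap in VSMC-like cells. In NSC-like cells Synm and Ina had 5 and 2 UMIs at 12w and 0 and 1 at 24w. In AS-like cells both had 2 UMIs at 12w, with 1 for Synm and 0 for Ina at 24w. In AS-like and OL-like cells the count of Ina rests on 0 UMIs at 24w, and in OL-like cells also at 12w, where 3 counts allow 13.6 and 21.3 CPM at 12w and 24w. Scaling each class to the median of all genes moves the values by up to 0.32 on the log2 scale, in VSMC-like cells at 24w, and leaves 11 of the 12 in place, the exception being Nes in AS-like cells. Over all classes and genes the share of higher among the differences was 43.4%, and 33.9% with that scaling.

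Genes around the filaments were taken from lists of other cytoplasmic intermediate filaments, of which 22 of 23 were found, and of filament linkers and chaperones, of which 18 of 19 were found. Of the linkers and chaperones, 1 of 11 compared was higher and 2 were lower in PC-like cells, 1 of 14 was higher in NSC-like, 1 of 13 in AS-like and 1 of 12 in IMN2-like cells, 3 of 8 in VSMC-like cells, 1 of 7 in OL-like and 1 of 12 in EDC-like cells, to be read against the shares of all genes given above for these classes. The single gene was Hspb1 in NSC-like, AS-like and IMN2-like cells and Cryab in OL-like and EDC-like cells. Of the other filaments, 1 of 2 compared was lower in NSC-like cells and 2 of 4 in AS-like cells, in OL-like cells 1 of 3 was higher and 1 lower, and in EDC-like cells 2 of 6 were higher and 1 lower. Of the lower ones, Bfsp2 in AS-like cells and Krt1 in OL-like and EDC-like cells had intervals that include 1 at both later ages. Hspb1, a small heat shock protein that binds filaments, stood at 131, 1043 and 709.6 CPM in PC-like cells at P5, 12w and 24w, a ratio over P5 of 7.95 (6.98 to 9.1) and 5.41 (4.74 to 6.21). In VSMC-like cells it stood at 294, 1646 and 1231 CPM, and in NSC-like cells at 2.15, 49.4 and 65.9 CPM, where free RNA was predicted to supply 121% and 101% of the level at 12w and 24w. The predicted part was 131% and 104% in AS-like and 102% and 94.6% in IMN2-like cells. Cryab, for alphaB-crystallin, a chaperone of desmin and GFAP filaments, went the other way in PC-like cells, with 1006, 375 and 319 CPM and a ratio of 0.373 (0.349 to 0.398) and 0.317 (0.294 to 0.341). Cryab was higher at the later ages in OL-like cells, with 35.3, 2547 and 2915 CPM, and in EDC-like cells, with 39.2, 1199 and 458 CPM. The OL-like cells, whose own markers also summed higher at the later ages, may differ in maturity between the ages, which was not tested. Bfsp2, a filament gene known from the lens, stood at 105, 553 and 468 CPM in OL-like cells and 3.18, 1.55 and 0 CPM in AS-like cells, where the 0 UMIs at 24w allow a level above that at P5 and a lower level was not detectable at this depth. Krt1, an epidermal keratin, was low and lower still at the later ages in NSC-like cells (18.8, 6.48 and 0 CPM) and AS-like cells (11.6, 1.55 and 0 CPM). Dtna, for alpha-dystrobrevin, stood at 16.6, 6.67 and 4.43 CPM in PC-like cells, with 76.3% and 84.1% of the later levels predicted from free RNA.

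From the scATAC-seq libraries 8788, 12638 and 6041 nuclei were kept, and the transposase counts of the libraries were 256859756, 315005811 and 201338852. Classes were transferred from the scRNA-seq clusters of the same age, so they are only as good as that transfer, and own markers were the most open in 5 of 8 for NSC-like, 3 of 10 for AS-like, 3 of 8 for IMN2-like, 7 of 9 for PC-like and 6 of 7 for VSMC-like nuclei. Values are fragments in merged regions, scaled to the same total as CPM, and since peaks were called in each library, a region can cover more bases in 1 library than in another. The Nes start-site region, chr3:87968860-87975985 on mm10, spans exons 1 to 3, introns 1 to 3 and part of exon 4, and fragments of the transgene's Nestin sequence cannot be told apart from those of the gene. It was open in every class, with 266, 293 and 309 in NSC-like, 204, 219 and 191 in AS-like and 380.1, 337 and 353 in PC-like nuclei. In NSC-like nuclei the ratios over P5 were 1.1 and 1.16, beside RNA ratios of 1.95 and 2.9, and per base covered by peaks they were 0.967 and 1.02. IMN2-like nuclei differed more, with 96.8, 178 and 218 and ratios per peak base of 1.61 and 1.98. The Nes RNA of IMN2-like cells was 6.4, 7.95 and 15.6 CPM on 28, 15 and 5 UMIs, with ratios over P5 whose intervals include 1. The Vim start-site region, chr2:13571887-13576745, held 107, 77.3 and 80.8 in PC-like nuclei, ratios of 0.723 and 0.756 beside 0.133 and 0.148 for the RNA. In NSC-like nuclei it held 93.6, 93.2 and 93.7, and in EDC-like nuclei 81.6, 132 and 151. The Gfap start-site region, chr11:102894798-102899294, was the most open in NSC-like, AS-like and EDC-like nuclei, with 90.5, 74.8 and 95.1 in NSC-like, 67.0, 61.7 and 103 in AS-like and 72.5, 92.8 and 87.8 in EDC-like nuclei. Oligodendroglial nuclei were lower, with 14.6, 18.6 and 21.0 in OL-like nuclei, and NPC-like nuclei held 46.5 at P5 and IMN1-like nuclei 34.9 at P5 and 37.1 at 12w. It was low in PC-like nuclei, with 5.5, 3.19 and 2.55, and held 20.8, 23.6 and 27.8 in IMN2-like nuclei. Whether counts of 1 class came from other nuclei was not tested. The Des start-site region, chr1:75359232-75362617, held 49.0, 62.5 and 65.6 in VSMC-like and 44.5, 50.5 and 56.0 in PC-like nuclei, and its peaks covered 1330 bases at P5 and 3347 at 12w.

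**Figure D3:**
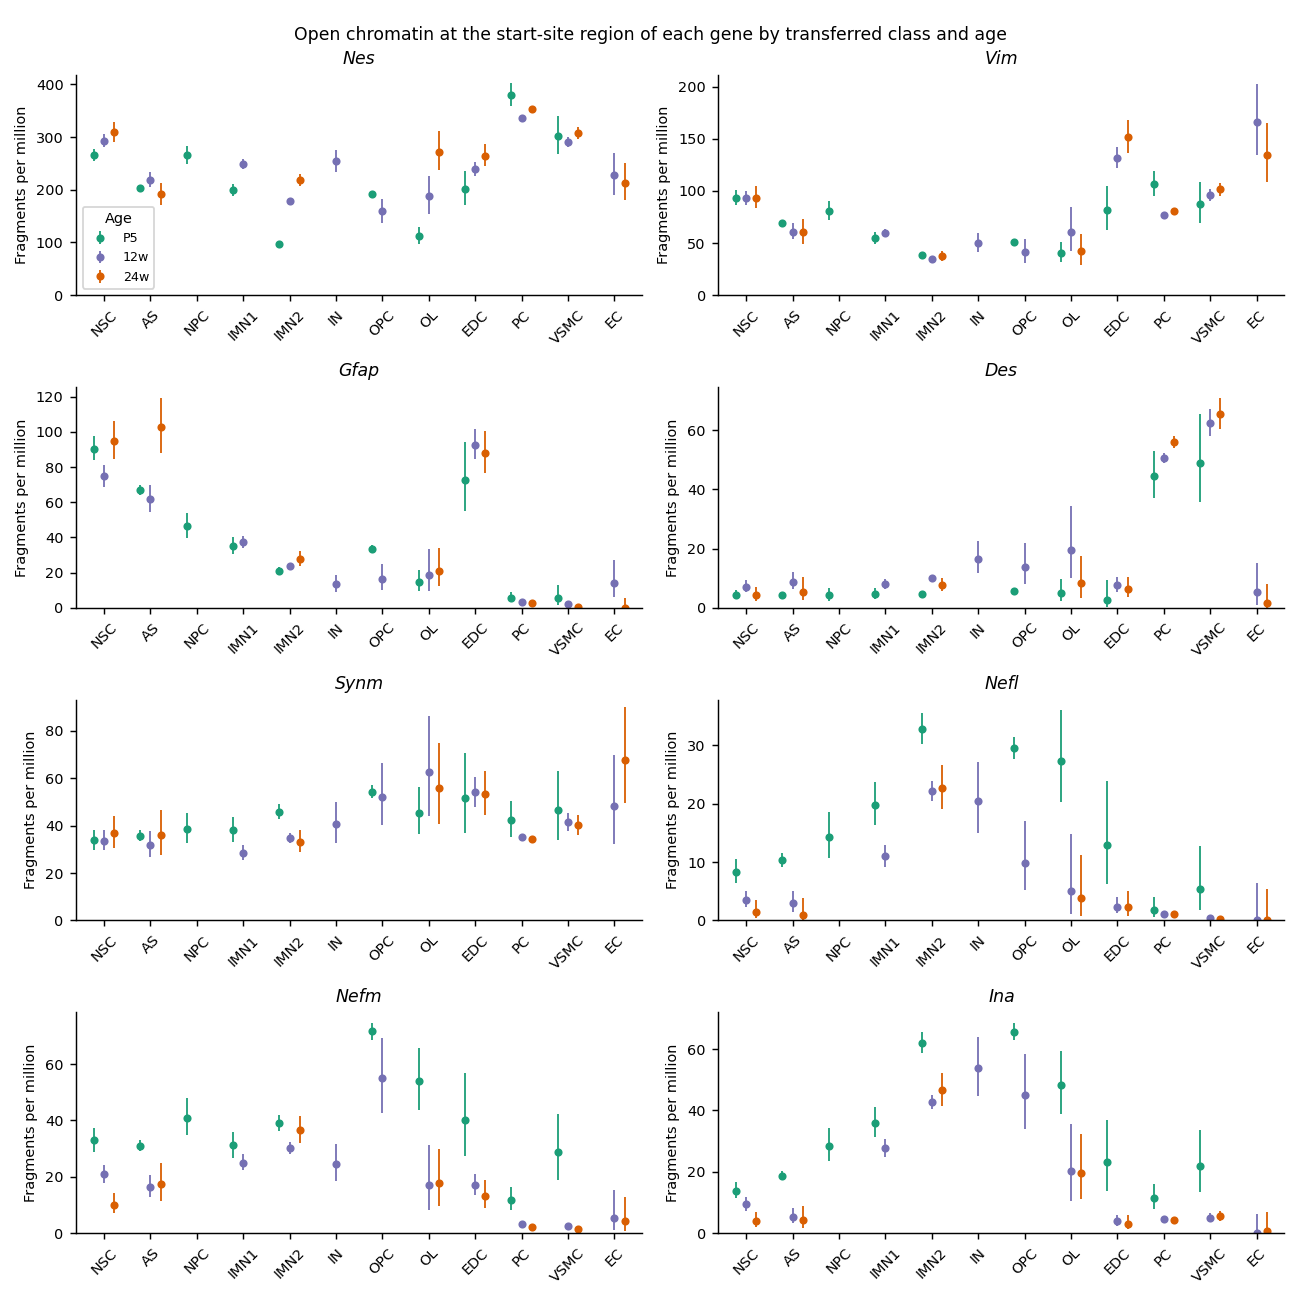
Fragments, scaled to the same total as CPM, in the start-site region of each of the 8 genes by transferred class and age, with exact 95% Poisson intervals for counting error, in groups of at least 40 nuclei. The Gfap region is low in mural nuclei, at 5.5, 3.19 and 2.55 in PC-like nuclei, whereas the Nes region is open in every class.

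Over the regions in and around the 8 genes, 100 pairs of a region and a class could be compared with P5, and 3 were higher and 10 lower by 2-fold at both later ages. Of all regions compared, 2.81% were higher and 5.40% lower in NSC-like nuclei, 1.77% and 15.5% in AS-like, 7.00% and 1.71% in IMN2-like, 13.2% and 5.62% in PC-like and 20.1% and 4.00% in VSMC-like nuclei. By class, 1 of 16 pairs were lower in NSC-like, 3 of 25 in AS-like, 3 of 20 in PC-like and 3 of 16 in VSMC-like nuclei, and 1 of 23 were higher in IMN2-like and 2 of 16 in VSMC-like nuclei, so that the shares were near or under those of all regions except for the lower ones in PC-like and VSMC-like nuclei. The start sites of the neuronal members made up most of the lower ones. The Nefl start-site region, chr14:68083401-68085389, had ratios of 0.42 at 12w and 0.182 at 24w in NSC-like and 0.282 at 12w and 0.0881 at 24w in AS-like nuclei, and held 32.8, 22.2 and 22.6 in IMN2-like nuclei. The Ina start-site region, chr19:47013339-47016930, which also holds the start of Nt5c2, had 0.285 at 12w and 0.227 at 24w in AS-like, 0.394 at 12w and 0.371 at 24w in PC-like and 0.23 at 12w and 0.251 at 24w in VSMC-like nuclei, and held 13.8, 9.35 and 3.92 in NSC-like and 62.1, 42.7 and 46.5 in IMN2-like nuclei. The Nefm start-site region, chr14:68122595-68126008, had 0.278 at 12w and 0.174 at 24w in PC-like and 0.0917 at 12w and 0.0479 at 24w in VSMC-like nuclei. The RNA of Nefl and Nefm had 0 UMIs in the vascular classes, so no RNA change stands beside these. In VSMC-like nuclei a region in intron 2 of Synm, chr7:67740293-67742484, had 2.65 at 12w and 2.37 at 24w and a region in exon 4, chr7:67730133-67732729, had 4.8 at 12w and 4.72 at 24w (intervals of 1.47 to 29.1 and 1.44 to 28.8, wide for the few fragments at P5), beside RNA ratios of 6.18 and 5.92. The intron 2 region went the other way in PC-like nuclei, with 0.428 at 12w and 0.365 at 24w. Downstream of Des, a region was lower in AS-like nuclei (0.309 at 12w and 0.258 at 24w) and a region was higher in IMN2-like nuclei (2.83 at 12w and 3.23 at 24w), and upstream of Nes a region was lower in VSMC-like nuclei (0.455 at 12w and 0.478 at 24w). Set per base covered by peaks, the ratios of the neuronal members stayed past 2-fold, and those of the region upstream of Nes in VSMC-like nuclei were 0.47 and 0.556, the latter short of it. Among the higher regions the ratios were smaller, for the Des region in IMN2-like nuclei 1.32 and 1.5, for the Synm intron 2 region in VSMC-like nuclei 1.68 and 1.73, and for the Synm exon 4 region there 2.29 and 2.22. The Des region in AS-like nuclei had intervals that include 1, at 0.0215 to 1.42 at 12w. At P5 the mural classes were small, with 219 PC-like and 64 VSMC-like nuclei, and when a transfer score of at least 0.7 was asked for, fewer classes had 40 nuclei at each age and 2 of these differences were left.

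In the cultured NSCs, 4 files held TPM, transcripts scaled by length and to a common total, and matching them to the study's own expression table put the libraries labelled Ctrl_3, Setd8KD_1 and Setd8KD_2 among the controls and the library labelled Setd8KD_3 as the knockdown, which goes against the titles of 2 of them. Setd8 itself stood at 154, 143 and 143 TPM in the former 3 and at 36.4 TPM in the latter (log2 change -1.98, SE 0.08, limma adjusted p = 0.00656). The single knockdown library was assumed to vary as the controls do. The p-values set its distance from the controls against the spread between the 3 control libraries, which may be technical. How knockdown libraries vary was not measured. Vim, the filament gene of progenitors, stood at 5376, 5562 and 5652 TPM in the 3 control libraries and 5018 TPM in the knockdown library (log2 change -0.14, SE 0.07, limma adjusted p = 0.193). Nes stood at 191, 223 and 236 TPM in the 3 control libraries and 149.9 TPM in the knockdown library (log2 change -0.52, SE 0.14, limma adjusted p = 0.0572). For both genes the knockdown library was below all 3 controls, and neither difference passed an adjusted p of 0.05. In 2 of 6 alternative fits Nes did pass, with a prior variance that follows the mean (adjusted p = 0.020, limma) and without the library labelled Ctrl_3 (0.0297), and its adjusted p ranged from 0.020 to 0.238 over the 6. Gfap was low, with 3.53, 3.3 and 3.38 TPM in the 3 control libraries and 2.84 TPM in the knockdown library, that is 127, 122 and 118 reads against 102 (log2 change -0.20, SE 0.07, limma adjusted p = 0.101). Fewer cells that hold an RNA and less of it per cell cannot be told apart in bulk samples.

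Ina was higher in the knockdown library and stood at 3.11, 3.75 and 4.03 TPM in the 3 control libraries and 5.92 TPM in the knockdown library (log2 change 0.58, SE 0.14, limma adjusted p = 0.0416), on 62, 77 and 78 reads against 118. This call was kept in 2 of 6 alternative fits, was lost without the library labelled Setd8KD_1 (adjusted p = 0.0914, limma) and without the library labelled Setd8KD_2 (0.0612), and over the 6 its adjusted p ranged from 0.0369 to 0.194. Synm stood at 0.807, 0.518 and 0.772 TPM in the 3 control libraries and 1.5 TPM in the knockdown library, on 56, 37 and 52 reads against 104, and since it reached the filter of 1 TPM through the knockdown library alone, no test is given for it. Des, Nefl and Nefm were each below the filter on low values in all 4 libraries and were not tested, with 6, 4 and 2 reads against 7 for Des, 2, 1 and 1 reads against 2 for Nefl and 6, 7 and 4 reads against 7 for Nefm. Of the 4 members that reached the filter in the controls, 1 was called higher and 0 lower, where limma called 16.1% of all genes higher and 16.3% lower. In all 4 the knockdown library lay outside the range of the controls, as it did for 41.3% of genes above it and 40.1% below it. With the libraries grouped by their titles instead, as 1 control against 3 of knockdown, limma called 0 genes and 168 had an unadjusted p under 0.05. In the lists of other filaments and of linkers and chaperones, Cryab stood at 106, 109 and 106 TPM in the 3 control libraries and 313 TPM in the knockdown library (log2 change 1.54, SE 0.07, limma adjusted p = 0.00656), a call kept in 6 of 6 alternative fits. Nckap5, Bfsp2 and Dtna were called higher as well, with log2 changes of 0.59, 0.60 and 0.48 (limma adjusted p = 0.0131, 0.0147 and 0.0167), and of the 6 alternative fits 5 kept the call of Nckap5, 5 that of Bfsp2 and 3 that of Dtna.

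**Figure D4:**
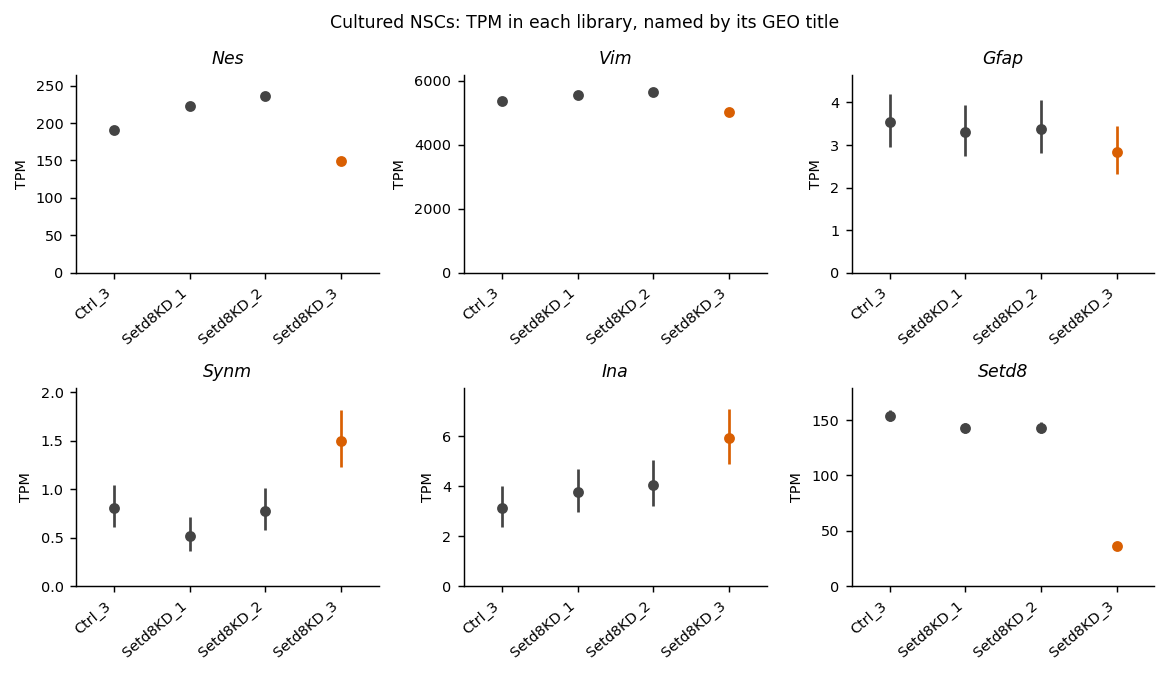
TPM of 5 members and of Setd8 in each of the 4 libraries of cultured NSCs, named by their titles, with the 3 controls in grey and the knockdown library in orange; bars are exact 95% intervals of the reads. Nes is lowest in the knockdown library, at 149.9 TPM, and Ina and Synm are highest in it, at 5.92 and 1.5 TPM.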

How the data were processed

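Single-cell RNA-seq and ATAC-seq of sorted cells at 3 ages and bulk RNA-seq of cultured NSCs were analysed. The members and gene lists were chosen with earlier results of these data known.

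The scRNA-seq values deposited by the authors are raw UMI counts per gene and barcode (Cell Ranger 2.2.0, mm10). Barcodes of at least 1000 UMIs and 500 genes with at most 10% mitochondrial UMIs were kept (Python 3.11.15, numpy 2.4.6, pandas 2.3.3), 932, 80 and 3 doublets were removed (scrublet in scanpy 1.11.5) and the ages were integrated and clustered in Seurat 5.3.0 (R 4.3.3; resolution 0.8) without intermediate filament genes. Clusters were named from at least 3 raised markers, and stayed unnamed where a second class scored at least 0.75 of the first, except between NSC, AS, NPC, IMN1 and IMN2 in the second round of clustering, run on neural cells. They also stayed unnamed where another class had more markers among the 10 leading genes than their own class. Intervals came from scipy 1.17.1, at 95%. The rule of size takes ratios of at least 2-fold the same way at both later ages, with 20 UMIs where higher and 20 cells per age. It was tested on simulated data.

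The scATAC-seq values deposited by the authors are raw counts of transposase cut sites per peak and barcode (Cell Ranger ATAC, mm10). Nuclei of 3000 to 100000 counts received classes by transfer of labels (score of at least 0.5). Counts divided by 2 give fragments, scaled to the same total as CPM over all merged regions. Classes of at least 40 nuclei per age were compared, and doublets were not called.

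The bulk values deposited by the authors are TPM, aligned with STAR. The files hold TPM in 4 of 6 samples, and the other 2 hold gene symbols and lengths. The libraries were grouped by matching values to the study's own table, where 169 of 169 genes matched within 0.1% in each library. limma 3.58.1 was fitted to log2(TPM + 1) of 3 control libraries against 1, for genes of at least 1 TPM in at least 1 library, with Benjamini-Hochberg adjustment at 0.05, and a fold on this scale understates the change of low genes. Recovered reads, whole for 100.0% of values under 200 reads at a tolerance of 0.02 reads, gave 20040233 to 21493510 reads per library and were used for counts and intervals only.

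Named beside the members are at most 6 genes of the lists past the rule of size in NSC-like, AS-like, IMN2-like or PC-like cells or called by limma, by largest change, and the 3 genes most correlated with Nes, Vim, Gfap, Des and Ina among genes of at least 500 UMIs, over groups of at least 50 cells. The alternatives changed the scaling, the filters on cells and genes, the clustering resolution, the fold, the transfer score, the pseudocount, the prior variance, the grouping and the libraries included.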

Additional observations from a re-analysis of the deposited data

Results flagged for a closer look

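The chaperone gene Cryab moved in opposite directions between classes. Its ratio to P5 was 72.3 at 12w and 82.7 at 24w in OL-like cells and 30.6 and 11.7 in EDC-like cells, but 0.373 and 0.317 in PC-like cells. Bfsp2 had ratios of 5.28 and 4.47 in OL-like cells and of 0.487 and 0.0 in AS-like cells, the latter on 2 UMIs at 12w and 0 at 24w, a depth that could not show a fall from 3.18 CPM. With 1 library per age, the difference between the classes was not tested for either gene.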

How the results depend on the processing

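Of the 12 differences between ages among the members, 10 to 11 held under each of 7 alternatives, and those lost are given beside the genes. Subtracting free RNA, done at 12w and 24w only, can only lower a ratio over P5. The downward differences could thus not be lost under that alternative. Of 94 levels, 92 stayed within their counting interval in cells of at least 2000 UMIs, and 81 as a mean over cells, and of 50 levels at 12w and 24w 40 did after subtracting free RNA. Over all genes and classes 8746 differences passed 2-fold, 16552 at 1.5-fold, 4149 at 3-fold and 5196 with at least 50 UMIs. At the member loci 13 pairs of a region and a class passed, and 2 with a transfer score of at least 0.7, where fewer classes could be compared. In the cultured NSCs limma called 4283 genes, 1935 with no filter on low values, and 1746 to 3394 with 1 control library left out, the fewest without the library labelled Setd8KD_1 and 2396 without the library labelled Setd8KD_2. Grouped by the titles, limma called 0 genes, with 168 at an unadjusted p under 0.05, and the log2 change turned to 0.0617 for Nes and 0.00716 for Vim. Apart from the smaller number of samples or classes, the cause was not tested. No paired analysis was possible because the groups compared share fewer than 2 replicate numbers. The limits are 1 library per age, ages that differ in the sex of the mice, a P5 library without barcodes of low depth, and 1 knockdown library.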

Other observations

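Keratins were found in EDC-like cells, and these genes were chosen after their values were seen; values are in the order P5, 12w and 24w. Krt15 stood at 197, 621 and 473 CPM, and Krt18 at 47.9, 184 and 116 CPM. Krt8 and Krt19 were also highest there, at 140.0 CPM (16 UMIs) and 61.3 CPM (7 UMIs) at 12w. In VSMC-like cells the linker gene Dst stood at 43.6, 95.6 and 91.0 CPM, and Jup, for plakoglobin, at 3.79, 19.4 and 32.8 CPM.

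Clusters that stayed unnamed, also chosen after their values were seen, held the members as well. Cluster 1-21, with raised markers of both pericytes and cycling cells and 145 cells, all at P5, held 716 CPM of Vim, 102 CPM of Nes and 64.6 CPM of Des. Cluster 1-15, of mixed mural markers, held 444 CPM of Vim at 12w and 345 CPM at 24w, and 59.7 and 104 CPM of Nes. Cluster 2-5, led by DNA replication genes, held 384, 282 and 228 CPM of Vim and 162, 125 and 104 CPM of Gfap at P5, 12w and 24w. Cluster 1-16, led by Ube2c, Cenpf and Pdgfra, held 57.1 CPM of Ina at P5.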
